A study of Arabidopsis thaliana with 2 samples.

Results

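The genes described here are 10 loci of Arabidopsis thaliana known as central cell genes of the embryo sac. They are DD7, DD9, DD22, DD25, DD36, DD46 and DD65, named from screens for genes down-regulated in ovules that lack an embryo sac, and the ESF1 genes ESF1.1, ESF1.2 and ESF1.3 (EMBRYO SURROUNDING FACTOR 1). The rule takes them by locus identifier and uses no measured value, although it was set with earlier results of these data known, and all 10 were found among the 33557 identifiers with a value. The study sequenced RNA of mature ovules, dissected by hand, of 2 kinds labelled wild-type and myb98, with 1 library of each. The wild-type label stands for unpollinated ovules of ms1, a male-sterile line, so its own mutation, and anything else in which the collections differed, cannot be told apart from loss of MYB98. The protocol given for both libraries was emasculation at floral stage 12 and collection 36 hours later, with ovules of about 50 pistils pooled. The labels name neither the mutant alleles nor the accession backgrounds.

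The central cell is the large cell of the embryo sac that fuses with a sperm cell and becomes the endosperm, the nourishing tissue of the seed. Before fertilization it makes many small secreted proteins rich in cysteine, whose disulphide bonds hold a compact fold. ESF1 peptides are made by the central cell and later by the endosperm around the embryo, and they shape the early suspensor, the stalk of the embryo, together with the YODA kinase pathway. MYB98 is a transcription factor known for its role in the synergids, the cells beside the egg that attract pollen tubes. The question of the study was which ovule transcripts need MYB98. For the genes described here, the cell in question is a neighbour of the synergids.

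The proteins differ in size and in cysteine content. By the TAIR10.1 annotation DD7 is a plant thionin family protein of 69 codons, DD22 is low-molecular-weight cysteine-rich 80 (LCR80) with 122 codons, and DD25 and DD36 are defensin-like proteins of 80 and 86 codons. DD9 belongs to the self-incompatibility protein S1 family and has 151 codons. DD46 is a galactosyltransferase family protein of 398 codons and DD65 is the glycosyl hydrolase MAN3, an endo-beta-mannanase of 414 codons, so the label of small secreted peptides does not cover them. ESF1.1, ESF1.2 and ESF1.3 have 83, 82 and 90 codons and are annotated as maternally expressed or embryo surrounding factor proteins. Cysteine codons made up 15.6% of codons in DD22, 11.0% to 12.0% in the ESF1 genes and 10.0% in DD25, against 2.51% in DD46 and 0.966% in DD65.

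The coding part of exon 2 of the ESF1 genes shows what these members share and where they differ. It is printed here on the gene's own strand (plus), 5′ to 3′, with cysteine codons in capitals. The capital pair at the start of each completes a cysteine codon split by the intron. The stretches lie at chr1:3574449-3574636, chr1:3572879-3573066 and chr1:3562346-3562554 (TAIR10.1, RefSeq).
ESF1.1: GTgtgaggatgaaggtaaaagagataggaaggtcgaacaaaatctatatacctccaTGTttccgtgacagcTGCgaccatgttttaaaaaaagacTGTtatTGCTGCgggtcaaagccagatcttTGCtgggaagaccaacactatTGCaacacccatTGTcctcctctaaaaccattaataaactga
ESF1.2: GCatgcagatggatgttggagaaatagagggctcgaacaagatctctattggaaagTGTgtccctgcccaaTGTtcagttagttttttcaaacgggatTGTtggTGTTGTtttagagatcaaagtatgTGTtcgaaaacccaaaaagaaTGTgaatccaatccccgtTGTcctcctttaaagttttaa
ESF1.3: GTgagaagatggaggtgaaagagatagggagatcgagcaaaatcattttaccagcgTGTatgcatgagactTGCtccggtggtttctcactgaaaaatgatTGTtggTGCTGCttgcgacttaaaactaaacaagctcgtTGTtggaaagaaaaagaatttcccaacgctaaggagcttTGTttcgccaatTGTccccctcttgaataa
Each stretch holds 8 whole cysteine codons after the split codon. In all 3 genes 18 codons lay between the split cysteine and the next, then 4 codons to the one after, and a cysteine, any codon and a pair of adjacent cysteines stood in the middle. The spacing after that pair differed, with 6, 6 and 9 codons to the next cysteine in ESF1.1, ESF1.2 and ESF1.3. Aligned end to end, the proteins were 44.8% to 48.9% identical, and the longest run of bases shared by a pair of ESF1 transcripts was 18 nt.

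DD25 and DD7 each have a related gene beside them, and these pairs are shown because the neighbours were expressed as well. The defensin-like gene AT3G04545 starts 1119 nt after the end of DD25 on the same strand. The coding parts of exon 2 lie at chr3:1223557-1223714 (DD25) and chr3:1225165-1225325 (AT3G04545), both on the plus strand, with cysteine codons in capitals.
DD25: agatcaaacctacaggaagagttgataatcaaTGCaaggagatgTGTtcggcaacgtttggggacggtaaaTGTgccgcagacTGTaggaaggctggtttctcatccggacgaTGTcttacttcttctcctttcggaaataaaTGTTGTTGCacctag
AT3G04545: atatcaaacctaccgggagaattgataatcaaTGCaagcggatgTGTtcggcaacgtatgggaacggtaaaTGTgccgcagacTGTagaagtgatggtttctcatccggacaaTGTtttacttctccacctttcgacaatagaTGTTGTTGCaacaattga
The spacing of all 8 cysteine codons was the same in both, the proteins were 76.5% identical, and only 1 run of 25 nt was common to the transcripts. The thionin gene AT2G20597 lies 945 nt from DD7 on the opposite strand, and the coding parts of exon 1 lie at chr2:8871804-8871997 (DD7, minus strand) and chr2:8873060-8873265 (AT2G20597, plus strand).
DD7: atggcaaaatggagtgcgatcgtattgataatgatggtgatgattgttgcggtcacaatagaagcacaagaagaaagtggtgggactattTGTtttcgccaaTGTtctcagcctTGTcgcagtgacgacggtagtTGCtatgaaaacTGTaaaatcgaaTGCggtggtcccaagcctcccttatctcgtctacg
AT2G20597: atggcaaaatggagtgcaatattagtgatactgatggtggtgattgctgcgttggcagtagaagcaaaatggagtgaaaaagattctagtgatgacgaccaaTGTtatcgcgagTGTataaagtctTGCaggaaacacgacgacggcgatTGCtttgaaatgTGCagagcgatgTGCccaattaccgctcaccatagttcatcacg
Both hold 6 cysteine codons, spaced by 3, 3, 6, 3 and 3 codons in DD7 and by 3, 3, 7, 3 and 3 in AT2G20597, and the proteins were 37.2% identical. DD36, the most abundant member, has its cysteines at the end of the protein, in exon 2 at chr3:8932443-8932645 on the plus strand.
DD36: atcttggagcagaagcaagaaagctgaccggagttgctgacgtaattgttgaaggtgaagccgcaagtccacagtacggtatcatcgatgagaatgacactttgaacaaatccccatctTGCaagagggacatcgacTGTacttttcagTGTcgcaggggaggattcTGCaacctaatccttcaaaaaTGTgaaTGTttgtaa
The DD36 protein was 29.7% identical to DD25 and 24.6% to DD22, so the 3 defensin-like members are distant from each other.

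**Figure D1:**
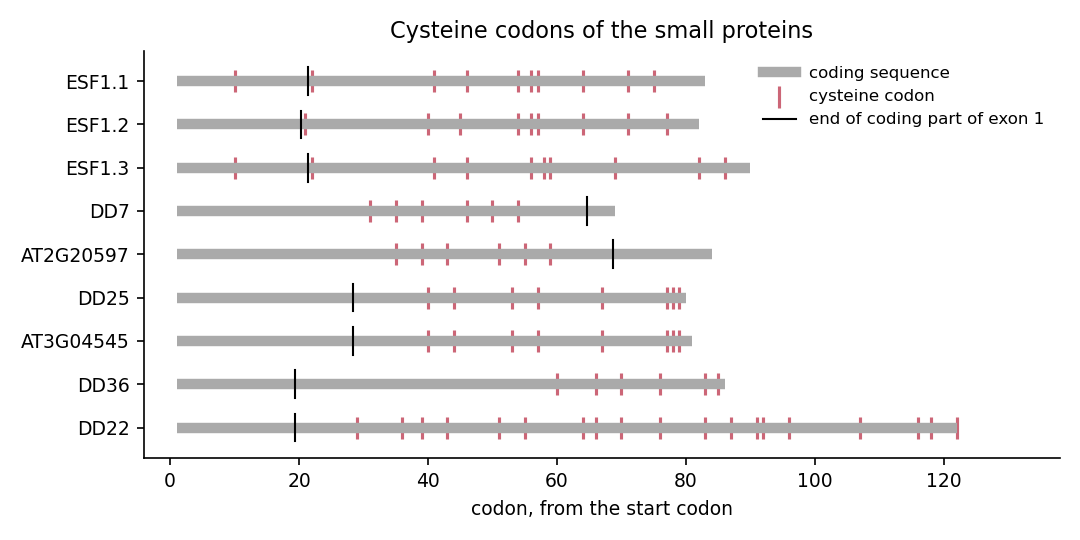
Each bar is a coding sequence, drawn in codons from the start codon, for the ESF1 genes, DD7, DD25, DD36, DD22 and the neighbours AT2G20597 and AT3G04545. Red ticks are cysteine codons and the black line is the end of the coding part of exon 1. The ESF1 genes share the split cysteine and the middle group, DD25 and AT3G04545 share all 8 positions, and DD22 holds 19 cysteine codons in 122.

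Expression is given in FPKM (fragments per kilobase of a transcript, relative to all fragments of the library), which allows levels of different genes to be set side by side. How transcript length was set for these values was not given, so levels of short and long transcripts compare less surely. From the lowest values of long transcripts, the libraries held about 48900000 (wild-type) and 44200000 (myb98) fragments. MYB98 (AT4G18770) itself stood at 1.35 FPKM in the wild-type and 0.474 FPKM in the myb98 library. A gene counts as expressed at 1 FPKM or more in either library, which 16303 genes reached. The log2 ratio is log2((myb98 FPKM + 1)/(wild-type FPKM + 1)), and a gene fell or rose if it was expressed and this ratio was 2 or more in size, 4-fold on that scale. There is 1 library per genotype, so no value has a replicate error and no difference was tested. The ovules were measured whole, so fewer cells of a type and less RNA per cell cannot be told apart.

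Of the 10 genes, 9 were expressed, and 0 fell and 0 rose in the myb98 library. Over all 16303 expressed genes, 0.712% fell and 0.282% rose by the same rule, so a count of 0 among 9 is near the background and no result about these genes in particular. At the looser size of 1 (2-fold), 1 member was higher, DD9, and 0 were lower, against 2.95% and 2.74% of all expressed genes. Of the 10, 8 had the 3 FPKM in the wild-type library that a fall by the rule requires. ESF1.1 and ESF1.3 did not. The summed level of the 10 genes was 340.0 FPKM in the wild-type and 352 FPKM in the myb98 library. The median log2 ratio of the 9 was 0.25, or -0.29 relative to genes of like transcript length, while that of all expressed genes was -0.0039.

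**Figure D2:**
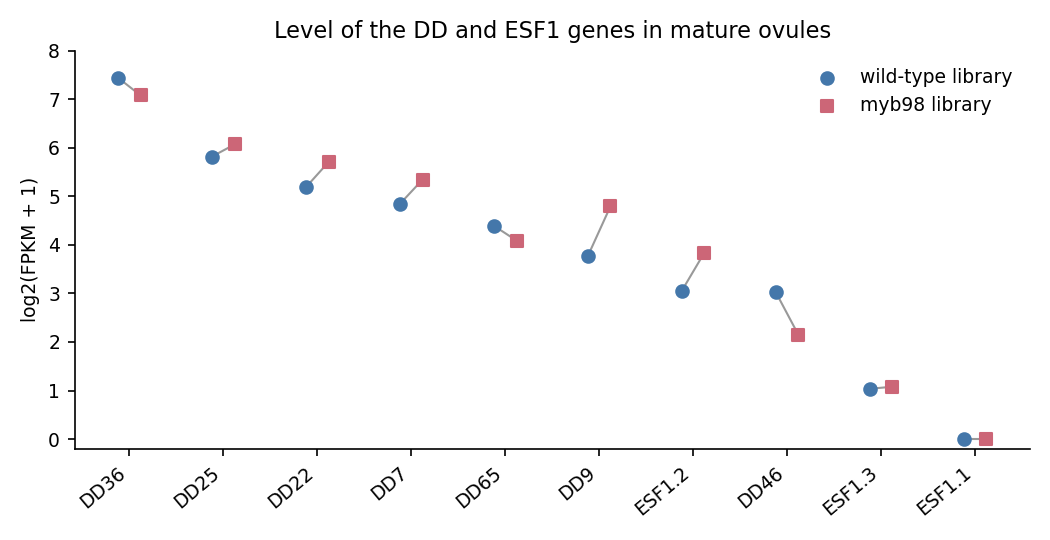
Level of each of the 10 genes as log2(FPKM + 1), in the wild-type library (circles) and the myb98 library (squares), ordered by the wild-type level, with 1 library per genotype and no error bars. DD36 is highest in both libraries at 173 and 134 FPKM and ESF1.1 is listed at 0 in both.

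The order of the levels was nearly the same in both libraries. DD36, DD25, DD22 and DD7, all small cysteine-rich proteins, held the first 4 places in each, and together they summed to 291.8 FPKM in the wild-type and 291.2 FPKM in the myb98 library. DD65 stood above DD9 in wild-type ovules and below it in myb98 ovules. ESF1.2, DD46, ESF1.3 and ESF1.1 followed in both. Without replicates it is not known which neighbours in this order differ beyond their spread.

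DD36 (AT3G24510), a defensin-like gene on chromosome 3 at 8931916 to 8932813 (plus strand, 2 exons), was at 173 FPKM in wild-type ovules. It ranked 110 among the expressed genes there. In myb98 ovules it was at 134 FPKM, or 77.5% of the wild-type level (1.29-fold lower, log2 ratio -0.36), and ranked 253. It supplied 50.9% of the summed FPKM of the 10 genes in wild-type ovules and 38.1% in myb98 ovules. The other 9 summed to 167 FPKM in the wild-type and 218 FPKM in the myb98 library. The log2 ratio of the sum over all 10 was 0.05 as deposited and -0.33 with each gene corrected for transcript length.

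The other defensin-like members were somewhat higher in the myb98 library. DD25 (AT3G04540, chromosome 3 at 1223251 to 1223789, plus strand, 2 exons) was at 55.5 FPKM in the wild-type and 66.2 FPKM in the myb98 library, 1.19-fold higher. DD22 (AT5G38330, chromosome 5 at 15317683 to 15318511, plus strand, 2 exons) was at 35.5 and 51.3 FPKM, 1.44-fold higher. The thionin gene DD7 (AT2G20595, chromosome 2 at 8871518 to 8872061, minus strand, 2 exons) was at 27.8 and 39.6 FPKM, 1.43-fold higher. The annotation describes DD7 as high in the central cell and low in the egg and synergids. None of these differences approached the size rule, and the log2 ratio of DD25 turned from 0.25 to -0.29 relative to genes of like transcript length.

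DD9 had the largest ratio of the 10. DD9 (AT1G26795, chromosome 1 at 9276381 to 9276954, plus strand, 1 exon), a homolog of the secreted S1 proteins known from self-incompatibility in poppy, was at 12.7 FPKM in the wild-type and 26.8 FPKM in the myb98 library. This is 2.11-fold higher, with a log2 ratio of 1.02, or 0.67 against genes of its own length. Its transcript shares 18.4% of its 25-base stretches with the adjacent S1 gene AT1G26796, which was listed at 0 in the wild-type and was at 0.0608 FPKM in the myb98 library. Reads of those stretches cannot be assigned with certainty.

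The enzymes were lower in the myb98 library. DD46 (AT1G22015, chromosome 1 at 7750994 to 7753519, minus strand, 11 exons), of the galactosyltransferase family, which adds sugars to proteins and cell wall polymers, was at 7.13 FPKM in the wild-type and 3.43 FPKM in the myb98 library. That is 48.1% of the wild-type level (2.08-fold lower, log2 ratio -0.88), the lowest log2 ratio of the 10 genes. In its family the gene AT1G11730 was lower still as a plain ratio, at 38.1% of its wild-type level. Of 17 expressed genes annotated to the family, DD46 included, 0 fell and 0 rose, and their median was -0.06. DD65 (AT3G10890, chromosome 3 at 3407332 to 3409000, minus strand, 4 exons), which cuts mannan chains of the cell wall, was at 20.01 and 16.03 FPKM, 1.25-fold lower. Its exons overlap those of AT3G10880 on the opposite strand over 381 nt. AT3G10880 was at 2.17 and 2.82 FPKM, and since the labels do not say whether strand was kept, reads from there could belong to either gene.

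The ESF1 genes were very unequal in level. ESF1.2 (AT1G10745, chromosome 1 at 3572674 to 3573173) was at 7.32 FPKM in the wild-type and 13.3 FPKM in the myb98 library, 1.82-fold higher (log2 ratio 0.79, or 0.26 against genes of its own length). ESF1.3 (AT1G10717, chromosome 1 at 3562180 to 3562554) was at 1.05 and 1.11 FPKM, which by the depth estimate is about 14.01 and 13.42 fragments, too few to show a difference of this size. ESF1.1 (AT1G10747, chromosome 1 at 3574312 to 3574830) was listed at 0 in both libraries, which in a table of estimated values can be a failed estimate. All 3 lie on the plus strand with 2 exons, and none of their 25-base stretches occurs in another annotated transcript. The last 24 nt of ESF1.1 overlap AT1G10750 on the opposite strand, which was at 1.90 and 1.80 FPKM. The ESF1 genes summed to 8.37 FPKM in the wild-type and 14.5 FPKM in the myb98 library, 2.46% and 4.11% of the summed level of the 10 genes.

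The ESF1 genes span 12.7 kb with 3 other annotated genes between them, and these stood within 1.44-fold of their wild-type level. AT1G10720, a BSD domain gene, was at 6.46 and 7.33 FPKM. AT1G10730, of a clathrin adaptor family, was at 4.36 and 3.16 FPKM and the hydrolase gene AT1G10740 at 8.81 and 6.10 FPKM. The higher value of ESF1.2 in the myb98 library was not shared by AT1G10740, the nearest of the 3, at 6.10 FPKM against 8.81 FPKM. The transcripts of ESF1.2 and AT1G10740 have 392 and 2240 nt. Relative to genes of like transcript length their log2 ratios were 0.26 and -0.37. Whether this difference is particular to the ESF1.2 locus was not tested. The ESF-like gene AT1G10715, 684 nt from ESF1.3, was not analysed here.

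**Figure D3:**
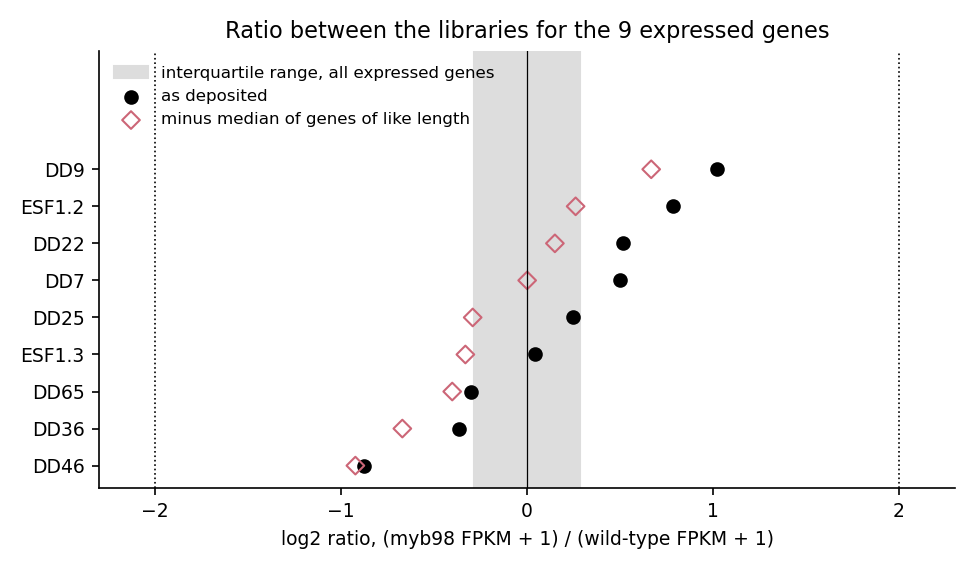
Log2 ratio of each of the 9 expressed genes, as deposited (filled circles) and after subtracting the median ratio of the 200 expressed genes nearest in transcript length (open diamonds). The grey band is the interquartile range of all expressed genes (-0.28 to 0.29) and dotted lines mark the size rule at -2 and 2. DD25 and ESF1.3 change sign with the subtraction, and DD46 is lowest and DD9 highest either way.

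Transcript length moved with these ratios. The median log2 ratio of the 200 expressed genes nearest in length was 0.31 to 0.54 for the 8 members with transcripts of 273 to 574 nt, counting ESF1.1. It was 0.05 and 0.10 for DD46 and DD65, whose transcripts have 1522 and 1368 nt. Genes of the shorter lengths were thus on the whole higher in the myb98 library, and the part of this in each member's value was not tested. Relative to genes of like length, DD36 stood at -0.67, DD46 at -0.92, DD65 at -0.40, DD22 at 0.15 and DD7 at 0.00066.

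Neighbours of the same families were expressed beside DD7 and DD25, and were low or listed at 0 beside DD36. AT2G20597, beside DD7, was at 71.5 and 80.0 FPKM, above DD7 in both libraries. AT3G04545, beside DD25, was at 25.6 and 41.8 FPKM, 1.63-fold higher in the myb98 library. Exact 25-base stretches of DD25 occurred more in AT1G32763 (22 of 348) than in this neighbour (1 of 348), and AT1G32763 was at 0.271 and 1.37 FPKM. DD36 lies between the defensin-like genes AT3G24508 and AT3G24513, which are 51.6% and 49.4% identical to it in protein. AT3G24513 was listed at 0 in both libraries and AT3G24508 was at 0.252 and 5.03 FPKM, far below DD36 in both libraries.

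The level pattern of these genes over both libraries was common. For the 8 members with at least 5 FPKM in a library, the nearest gene was sought in the plane of the wild-type and myb98 log2(FPKM + 1). It was the galacturonosyltransferase gene GATL6 for DD9 (distance 0.012), AT2G34040 for DD65 (0.013), AT1G19485 for DD46 (0.023) and AT1G67350 for DD7 (0.028). For DD22, ESF1.2 and DD25 it was AT5G54760 (0.034), AT4G00530 (0.041) and GSTU19 (0.048). DD36 stood more alone, with HIR1 at 0.15 and no gene within 0.1. With 2 libraries this likeness covers 2 values per gene only.

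**Figure D4:**
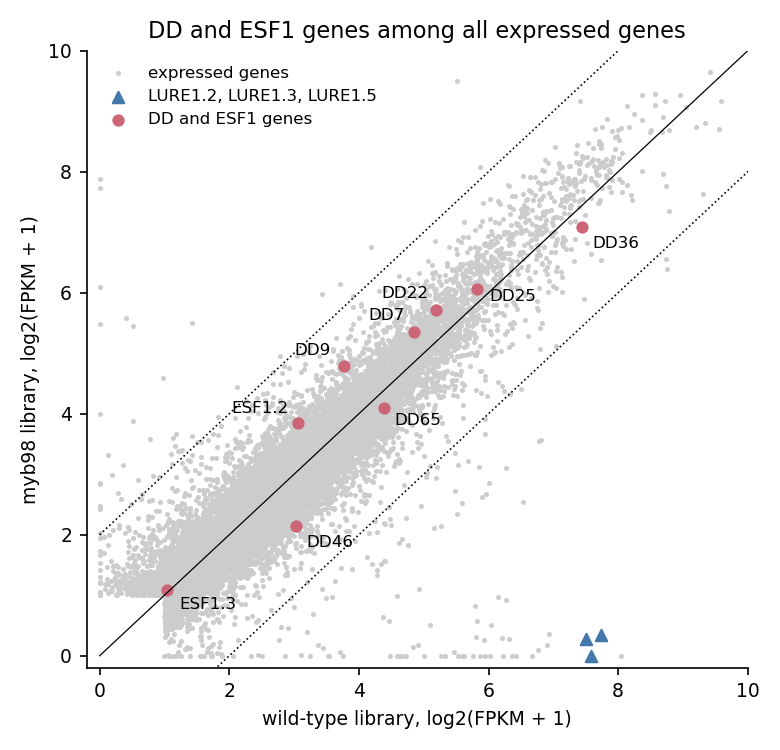
Each point is an expressed gene, with log2(FPKM + 1) in the wild-type library on the x axis and in the myb98 library on the y axis (5 genes lie beyond the axes). Dotted lines mark the size rule. The 9 expressed DD and ESF1 genes lie inside it, while the synergid genes LURE1.2, LURE1.3 and LURE1.5 go from 182 FPKM or more to 0.261 FPKM or less.

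The defensin-like and S1 families, which hold 4 of the members, also held genes that fell. Of 115 expressed genes annotated as defensin-like or LCR outside the members, 5 fell and 7 rose. These are 4.35% and 6.09%, against 0.712% and 0.282% of all expressed genes. The list was drawn by annotation wording and leaves out LURE1.2, LURE1.3 and LURE1.5, which fell with log2 ratios of -7.59, -7.24 and -7.41. Most of the list was higher in the myb98 library, with 95 of 115 genes above their wild-type level, 43 at least 2-fold higher and 7 at least 2-fold lower on the pseudocount scale. Its median log2 ratio was 0.70, or 0.23 relative to genes of like length, and AT3G24508 beside DD36 was among those that rose (log2 ratio 2.27, or 1.69 and no longer past the rule relative to like lengths). Within the list the largest ratios in size were falls, those of AT4G08869 (101 FPKM to a listed 0), AT5G50423 (73.1 to 0.230 FPKM), AT5G18403 (55.1 to 0.238 FPKM) and AT5G18407 (39.3 FPKM to a listed 0). Their wild-type levels lay between those of DD22 and DD36. Of 23 expressed S1 homologs outside DD9, 4 fell and 0 rose, namely AT1G56385, AT3G57840, AT5G04047 and AT3G17080, and the list's median was 0.88 beside 1.02 for DD9 (0.46 and 0.67 relative to genes of like length). Among 14 expressed thionin family genes outside DD7, a list added after the values were seen, 0 fell and 0 rose, and the median was 0.55 beside 0.50 for DD7 (0.11 and 0.00066 relative to genes of like length). The largest ratios there were of AT5G63085 (2.84 to 8.35 FPKM), AT5G58412 (39.9 to 89.3 FPKM), AT5G64816 (7.76 to 16.1 FPKM) and AT5G26717 (0.415 to 1.76 FPKM). In the galactosyltransferase family the largest besides DD46 were AT1G11730 (1.24 to 0.473 FPKM), AT4G21060, AT3G06440 and AT1G32930 (16.3 to 19.7 FPKM).

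Of the 6 other mannanase genes, 4 were expressed, and 0 fell and 0 rose (median log2 ratio 0.13). They differed between the libraries by 1.02-fold (MAN7) to 1.52-fold (MAN2), a range that holds the 1.25-fold of DD65. MAN7 was at 14.9 and 15.2 FPKM, MAN2 at 3.18 and 4.82 FPKM, MAN6 at 3.59 and 2.67 FPKM and MAN5 at 2.17 and 2.75 FPKM. DD65 was the most abundant of the 7 in both libraries. MAN4 (AT3G10900), its neighbour and the closest of the 6 with 70.3% protein identity, was at 0.609 and 0.230 FPKM, and MAN1 was at 0.0797 FPKM and a listed 0.

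Of 17 genes listed as regulators of the central cell, 4 had the wild-type level that a fall requires. In that list 8 genes were expressed, and 0 fell and 0 rose. Their median log2 ratio was 0.01, with 4 of the 8 above and 4 below their wild-type level. DME, the DNA demethylase that activates maternal alleles in the central cell, was at 8.61 and 3.85 FPKM (2.23-fold lower). Its log2 ratio was -0.99, or -0.51 relative to genes of like transcript length. MSI1, a chromatin subunit of the FIS Polycomb complex, was at 19.2 and 28.9 FPKM. FIE, another subunit, was at 7.37 and 8.83 FPKM. MEA, the histone methyltransferase of that complex, was at 0.852 and 1.18 FPKM and the MADS-box gene AGL28 at 0.298 and 0.588 FPKM. FWA and FIS2, active in the central cell, were at 1.67 and 1.36 FPKM and at 1.21 and 1.13 FPKM. PHE1 and AGL23 were listed at 0 in both libraries. Whether each gene of the list is active before fertilization was not tested, so a listed 0 is no result about the central cell. By FPKM, DD36 stood far above every gene in the list. The most abundant of the list was MSI1, which is not restricted to the central cell. The MSI1 transcript has 1626 nt and that of DD36 has 539 nt.

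Of 10 measured genes of the YODA suspensor pathway, 6 were expressed, and 0 fell and 0 rose (median log2 ratio 0.25). The kinase gene YDA was at 8.93 and 8.91 FPKM, MPK6 at 17.9 and 19.2 FPKM and MPK3 at 5.17 and 7.24 FPKM. The homeodomain gene HDG12 was at 1.57 and 2.71 FPKM and WOX8, also an egg cell gene, at 0.624 and 2.19 FPKM. SSP, which acts from the paternal side, was listed at 0 in both libraries of these unpollinated ovules.

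**Figure D5:**
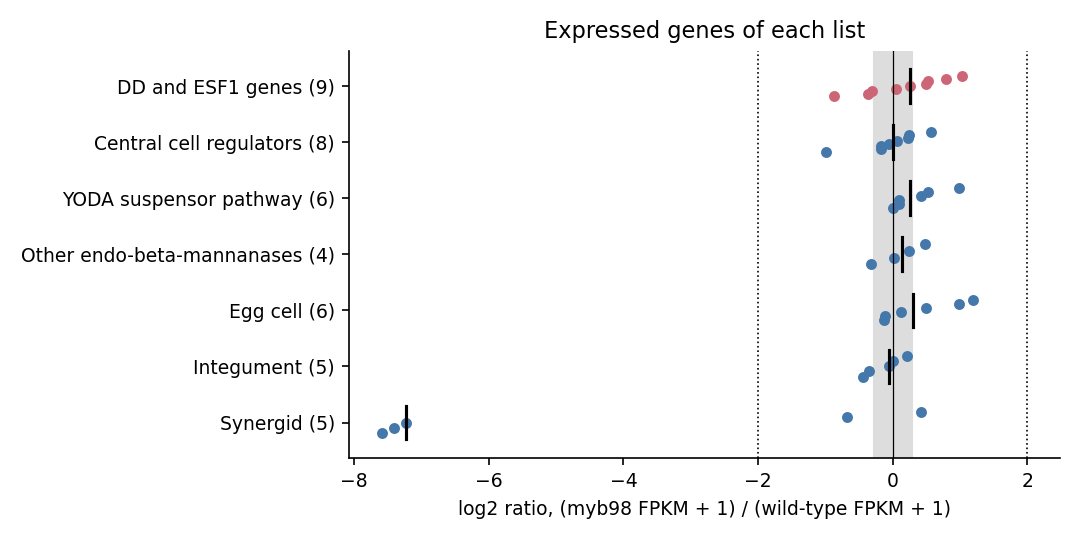
Log2 ratio of each expressed gene in the lists named at the left, with the number of genes in brackets, the list median as a black bar, the interquartile range of all expressed genes in grey and the size rule as dotted lines. The 9 DD and ESF1 genes span -0.88 to 1.02, and the points near -7 in the synergid row are the LURE1 genes.

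Markers of other cells of the ovule were compared as whole lists. The 6 egg cell markers summed to 222 and 261 FPKM and the 5 integument markers to 255 and 251 FPKM, and 0 of either list fell or rose. At the looser 2-fold size 1 egg cell marker was higher, EC1.5 at 24.3 and 56.8 FPKM, and 0 were lower. Over all expressed genes 2.95% were higher and 2.74% lower at that size. EC1.1 and EC1.4 were below their wild-type level, at 90.9% and 92.4% of it. Of the 6 synergid markers 5 were expressed and 3 fell, LURE1.2, LURE1.3 and LURE1.5. These 3 made up nearly all of the list's sum of 589 FPKM in the wild-type library. In the myb98 library the list summed to 3.01 FPKM, with LURE1.2 listed at 0, LURE1.3 at 0.211 FPKM and LURE1.5 at 0.261 FPKM. The other synergid markers lacked the wild-type level that a fall requires, with LRE at 0.769 and 1.36 FPKM and NTA at 0.731 and 0.709 FPKM. The antipodal gene DD1 was at 3.22 and 1.21 FPKM. Of the defining markers of endosperm after fertilization, AGL62 was at 0.90 and 1.32 FPKM and the list summed to 1.495 and 1.96 FPKM, while the pollen list summed to 1.59 and 1.36 FPKM with ANX2 listed at 0 in both.

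Promoters were read for the heptamer GTAACNT, a sequence bound by MYB98 in earlier work on synergid genes, on either strand in the 300 bases from 250 before to 50 after the annotated start. It occurred in 12.9% of 27443 nuclear protein-coding genes, in 13.1% of the 15858 of these that were expressed and in 33.0% of the 103 that fell. Of the 10 genes here, 3 held it once each, DD9 at -113, DD22 at -35 and ESF1.1 at -71 from the start, and 7 did not. The 150 bases before the annotated start are printed for these 3 and, for contrast, for ESF1.2, with the match in capitals (on the reverse strand for DD9 and ESF1.1). They lie on the plus strand at chr1:9276231-9276380, chr5:15317533-15317682, chr1:3574162-3574311 and chr1:3572524-3572673.
DD9: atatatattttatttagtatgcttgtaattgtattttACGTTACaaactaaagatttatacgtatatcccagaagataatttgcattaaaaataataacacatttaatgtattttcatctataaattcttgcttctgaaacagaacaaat
DD22: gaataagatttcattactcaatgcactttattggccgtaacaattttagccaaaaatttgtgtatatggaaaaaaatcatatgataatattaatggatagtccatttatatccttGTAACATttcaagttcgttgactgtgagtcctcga
ESF1.1: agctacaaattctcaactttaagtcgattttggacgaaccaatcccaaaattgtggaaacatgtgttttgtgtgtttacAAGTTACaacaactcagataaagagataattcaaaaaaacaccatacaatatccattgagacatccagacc
ESF1.2: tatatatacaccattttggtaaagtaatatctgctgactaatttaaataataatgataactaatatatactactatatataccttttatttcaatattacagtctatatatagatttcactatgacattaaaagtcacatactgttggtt
DD9 and DD22, with a match, were at 2.11 and 1.44 times their wild-type level in the myb98 library, and ESF1.2, without a match, at 1.82 times. Of the other members without a match, DD7, DD25 and ESF1.3 were at 1.43, 1.19 and 1.06 times that level. DD65, DD36 and DD46, also without a match, were at 80.1%, 77.5% and 48.1% of it. Any link between the heptamer and these levels was not tested. ESF1.1 is annotated from its start codon, so the bases before it can include transcribed sequence.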

How the data were processed

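The authors deposited FPKM, with a column for each library. The unit was read from the values, since the header names only the libraries. Per the submitters' processing notes, the tools included Cuffdiff 2.2.1 and TopHat2 2.0.14, and the build was TAIR10. How libraries were scaled to each other, the annotation, the strandedness and the options of Cuffdiff were not given in the sources used here. Of 35548 identifiers, 1991 were blank, and 32810 of the other 33557 matched a locus of TAIR10.1, whose gene models, sequences and coordinates were used. The longest transcript of a gene gave its length.

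Python 3.11.15, pandas 2.3.3, NumPy 2.4.6 and Biopython 1.88 were used. Ratios carry a pseudocount of 1, which understates changes of low genes. Depth was estimated from the lowest values of genes with a lone transcript of at least 1500 nt. Fragment numbers derived from it use the annotated length and are fewer if a shorter effective length was used. Counting and length correction were tested on simulated data. The members, lists and size rule were chosen with earlier results of these data known. The genes named were the members, MYB98, the 4 genes of each list whose log2 ratio was largest in size, the other mannanases, genes between the ESF1 genes and the nearest gene in level. Other markers, family neighbours and genes sharing sequence were named after their values were seen. In all 7 other settings were tried.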

Additional observations from a re-analysis of the deposited data

How the results depend on the processing

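Of the 10 genes, 0 fell and 0 rose under all 7 other settings: a pseudocount of 0.1 or 5, no filter on low values or at least 5 FPKM, scaling to equal sums, centring on the median, and correction for transcript length. At the 2-fold size, 1 gene was lower with a pseudocount of 0.1, DD46 at -1.03. The count of 1 higher gene, DD9, became 0 with a pseudocount of 5, with centring and with length correction, where DD9 lay below 1. The median log2 ratio of the members ran from -0.29 (length correction) to 0.37, that of the summed ESF1 genes from 0.25 to 0.78, and that of the central cell regulators from -0.02 to 0.23. Over all genes, the 116 that fell became 189 with a pseudocount of 0.1 and 60 with 5. The 46 that rose became 147 with 0.1, 13 with 5 and 29 with length correction. A change of over 1.5 times was taken as a move. With 1 library per genotype no library could be left out. No paired analysis was possible because each genotype has 1 library and the labels carry no replicate numbers. Depth limits ESF1.3, at about 14.01 and 13.42 fragments, and a listed 0 for ESF1.1 does not show that its RNA was absent.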

Other observations

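AT3G24508, the defensin-like gene 1277 nt before DD36, was at 0.252 FPKM in the wild-type and 5.03 FPKM in the myb98 library, a rise by the size rule (log2 ratio 2.27), and at 1.69 against genes of its own transcript length it no longer passed. DD36, its neighbour on the same strand, was at 173 and 134 FPKM in the same libraries.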
